A study of Homo sapiens with 12 samples.

Results

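The 10 genes described here are cyclin-dependent kinase (CDK) inhibitors and transcriptional targets of p53: CDKN1A, CDKN1B, CDKN1C, CDKN2A, MDM2, ZMAT3, GDF15, BAX, SESN1 and FDXR. They were chosen by gene symbol from the 78894 genes of the count table, and all 10 were among the 11203 genes with enough counts to be tested. They were followed in 12 RNA libraries of cardiomyocytes differentiated from the human induced pluripotent stem cell line WTC-mEGFP-ACTN2-cl85, a single clone in which 1 endogenous copy of ACTN2, the sarcomeric protein alpha-actinin 2, carries a C-terminal mEGFP tag in every group. For 48 hours the cells received 10 nM endothelin-1 plus 16 µM sacubitrilat, 10 nM endothelin-1 alone, 16 µM sacubitrilat alone, or vehicle, labelled DMSO. Each group had 3 libraries, each from its own culture of lactate-enriched cells. Endothelin-1 is a peptide that drives hypertrophic growth of cardiomyocytes, and sacubitrilat is the active form of the neprilysin inhibitor sacubitril. The study's main comparisons were endothelin-1 with vehicle and endothelin-1 plus sacubitrilat with endothelin-1.

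p53 is a transcription factor that is stabilised by DNA damage and other stresses and switches on genes for growth arrest, apoptosis and metabolic defence. CDKN1A, which encodes p21, is its best known arrest target, while MDM2 encodes the ubiquitin ligase that degrades p53 and so closes a feedback loop. CDK inhibitors come in a CIP/KIP family (p21, p27 and p57), which binds cyclin-CDK complexes, and an INK4 family, which binds CDK4 and CDK6 and keeps the retinoblastoma protein active. Cardiomyocytes leave the cell cycle as they mature, and p21, p27 and p57 are linked to that exit. In heart cells GDF15 is also known as a secreted stress signal.

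Depth set the precision of every value. Totals were 1268308 to 1953122 counts in the libraries of 1 compound alone. They were 80844 to 316932 with both compounds or vehicle, 10.1-fold fewer on average. Of the 60 values of the 10 genes in the vehicle and combined-treatment libraries, 45 rested on under 10 counts and 17 on under 3. In those groups, a count of 0 in a single library allows up to 9.47 to 37.1 CPM, the count per 1000000 counts of a library. Endothelin-1 against sacubitrilat, and the combined treatment against vehicle, are therefore comparisons between libraries of like total. The same holds for each compound averaged over the presence of the other, where each side has 1 group of high and 1 of low total. The other pairwise comparisons set high totals against low ones, and there treatment and library total cannot be told apart. A second line in the labels names the other compound for the 3 endothelin-1 and the 3 sacubitrilat libraries. Groups here follow the title, library name and treatment label, and directions between these groups rest on that choice. Cardiomyocyte markers were plentiful in every group: the 12 genes summed to 13038 to 19943 CPM with both compounds, 20525 to 21663 CPM with endothelin-1, 14570 to 15308 CPM with sacubitrilat and 8690 to 15404 CPM with vehicle, and none of the 12 was at 0. Markers of other cells moved with library total: 8 fibroblast genes summed to 6762 to 7624 CPM in the 6 libraries with a single compound and 1806 to 5031 CPM in the other 6. For smooth muscle 6 genes summed to 2978 to 3756 CPM and 523 to 2293 CPM in the same sets, and 7 endoderm and liver genes to 48.5 to 83.5 CPM and 197 to 680 CPM. Their part in the results below was not tested, and in bulk RNA fewer cells of a type and less RNA per cell cannot be told apart.

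The starts of 5 transcripts are shown because the differences below concern their genes. Each line is the 250 bases before a transcription start on the gene's strand, from RefSeq (GRCh38.p14), written 5′ to 3′. The CDKN1A window is chr6:36678464-36678713 (plus strand), the ZMAT3 window chr3:179071810-179072059 (minus), and the MDM2 window chr12:68808767-68809016 (plus), which is the start inside the gene that responds to p53. The CDKN2A windows are chr9:21995325-21995574 and chr9:21974858-21975107 (both minus). The start at the first gives the ARF transcript and that at the second the p16INK4a transcript, proteins read from shared last exons in different frames. Capitals mark a 20-base match to the p53 consensus site with up to 2 mismatches.
CDKN1A: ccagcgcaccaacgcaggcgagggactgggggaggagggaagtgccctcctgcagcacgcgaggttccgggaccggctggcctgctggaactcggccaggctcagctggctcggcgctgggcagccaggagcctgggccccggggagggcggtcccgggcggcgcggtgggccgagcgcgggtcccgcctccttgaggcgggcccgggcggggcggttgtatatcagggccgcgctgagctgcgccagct
ZMAT3: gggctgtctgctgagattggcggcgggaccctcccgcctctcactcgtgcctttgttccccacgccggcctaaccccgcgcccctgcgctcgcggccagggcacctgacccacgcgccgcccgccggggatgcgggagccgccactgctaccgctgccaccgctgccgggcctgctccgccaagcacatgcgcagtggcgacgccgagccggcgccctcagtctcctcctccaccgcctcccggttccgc
MDM2: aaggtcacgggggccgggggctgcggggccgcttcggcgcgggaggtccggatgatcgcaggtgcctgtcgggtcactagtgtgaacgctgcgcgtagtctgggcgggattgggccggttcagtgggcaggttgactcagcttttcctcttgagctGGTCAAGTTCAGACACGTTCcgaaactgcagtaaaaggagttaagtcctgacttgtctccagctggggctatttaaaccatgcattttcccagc
CDKN2A ARF: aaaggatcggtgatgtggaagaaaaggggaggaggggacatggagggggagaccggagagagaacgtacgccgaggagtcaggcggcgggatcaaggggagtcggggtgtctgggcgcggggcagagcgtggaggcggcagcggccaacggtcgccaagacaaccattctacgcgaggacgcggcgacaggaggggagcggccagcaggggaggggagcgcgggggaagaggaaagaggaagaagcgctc
CDKN2A p16INK4a: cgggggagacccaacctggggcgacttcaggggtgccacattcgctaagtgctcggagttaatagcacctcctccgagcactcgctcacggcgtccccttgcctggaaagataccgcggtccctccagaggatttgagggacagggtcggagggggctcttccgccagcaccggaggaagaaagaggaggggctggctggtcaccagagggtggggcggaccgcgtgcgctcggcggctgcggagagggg
Both strands of 17 such windows of 9 of the 10 genes were searched, and MDM2 alone held a match, starting 94 bases before the start. Its second internal start, whose window overlaps this one, holds the same match. Such matches stood in 0.561% of 35116 RefSeq windows of this length. The search was set with the known MDM2 site in view, and p53 sites farther from the start, such as those of CDKN1A, lie outside these windows.

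Between libraries of like total, 4 of the 10 genes were higher with endothelin-1 than with sacubitrilat: CDKN1A, CDKN2A, GDF15 and ZMAT3. In this comparison 11.2% of all tested genes were called, 6.44% higher and 4.78% lower. Over the 10 genes the log2 fold change had a median of 0.39, beside -0.01 for all tested genes. With both compounds, none of the 10 differed from vehicle, where edgeR called 0.179% of tested genes, 0.0803% higher and 0.0982% lower. In that comparison 2 of the 10 had an unadjusted p under 0.05, beside 1297 of the 11203 tested genes. CDKN2A was the one gene of the 10 that was lower with sacubitrilat than without it when averaged over endothelin-1. Adjusted p-values are from edgeR's quasi-likelihood test with Benjamini-Hochberg adjustment over the 11203 genes, and a gene was called at an adjusted p under 0.05.

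**Figure D1:**
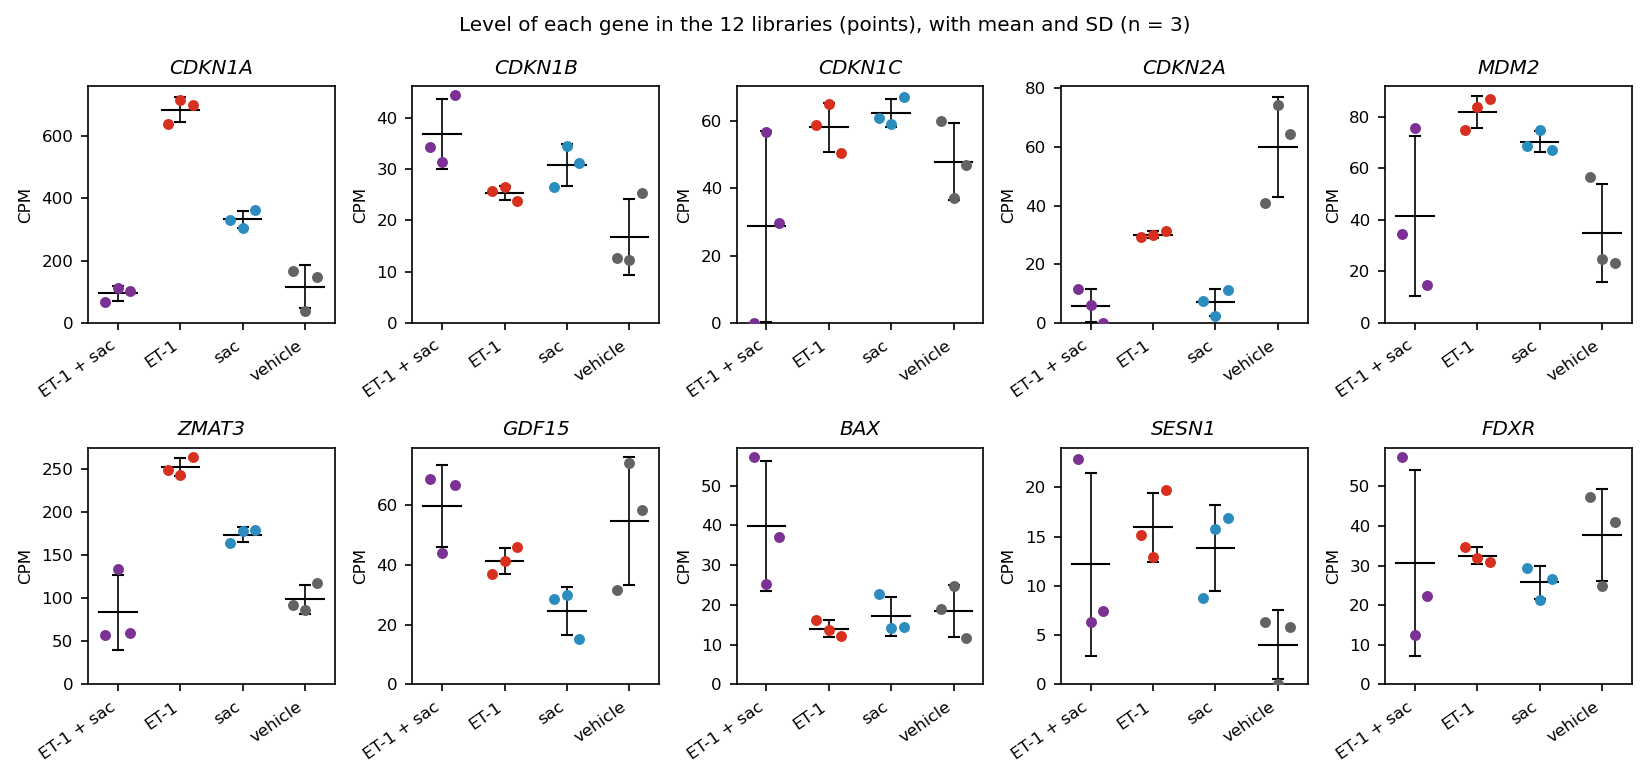
Level in CPM of the 10 genes in each of the 12 libraries (points), by group from left to right: endothelin-1 plus sacubitrilat, endothelin-1, sacubitrilat, vehicle. Bars give the mean and SD of 3 libraries. CDKN1A was at 639 to 717 CPM in the endothelin-1 libraries, above all others. CDKN2A was at 0 to 11.5 CPM in the 6 libraries that received sacubitrilat, below all others, on 0 or 1 counts per library with both compounds.

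CDKN1A, which encodes p21, differed between every pair of groups except the combined treatment and vehicle. Its levels were 68.7, 113 and 104 CPM with both compounds, 639, 717 and 702 CPM with endothelin-1, 331, 305 and 361 CPM with sacubitrilat, and 167, 37.1 and 147 CPM with vehicle. The endothelin-1 libraries were all above the sacubitrilat libraries, and these were all above the vehicle and combined-treatment libraries, which overlapped. Endothelin-1 against sacubitrilat gave a log2 fold change of 1.16 ± 0.15 (SE; edgeR adjusted p = 1.89e-07). In counts this was 3402 against 1544, a ratio per total of 2.03 with a 95% interval of 1.91 to 2.16 for counting error. The order of group means was endothelin-1, sacubitrilat, vehicle and combined treatment, and the last pair did not differ beyond its spread (95.3 ± 23.5 CPM with both compounds and 117 ± 69.9 CPM with vehicle, SD, n = 3 each; edgeR adjusted p = 0.669). Their summed counts, 38 with both compounds and 81 with vehicle, gave a ratio of 0.7, with an interval from 0.463 to 1.04. Averaged over the other compound, endothelin-1 libraries had a mean of 391 CPM and the rest 225 CPM, with an edgeR adjusted p of 0.479. For sacubitrilat the averages were 214 CPM with it and 401 CPM without it, a log2 fold change of -0.82 ± 0.20 that missed the threshold (edgeR adjusted p = 0.0635). That p passed with another scaling (0.0419), without a filter (0.0132), with DESeq2 (0.00108), without the libraries under 100000 counts (3.73e-04) and without vehicle replicate 2 (2.64e-04), the library at 37.1 CPM.

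CDKN2A was lower wherever sacubitrilat was present. Its levels were 11.5, 6.30 and 0 CPM with both compounds, 29.2, 29.9 and 31.4 CPM with endothelin-1, 7.34, 2.37 and 11.3 CPM with sacubitrilat, and 41.0, 74.2 and 64.5 CPM with vehicle. All 6 libraries that received sacubitrilat lay below all 6 that did not. With both compounds these values were 1, 1 and 0 counts, where the floors of 3 counts were 34.4, 18.9 and 22.2 CPM. The first of these floors lies above the endothelin-1 values, so combined-treatment replicate 1 is not resolved from them. Averaged over endothelin-1, the mean was 6.45 CPM with sacubitrilat and 45.0 CPM without it, a log2 fold change of -2.69 ± 0.39 (SE; edgeR adjusted p = 3.13e-04). This was the smallest p of the 11203 genes in a contrast in which edgeR called 0.259% of genes (0.0536% higher and 0.205% lower), 29 in all, or 16 with the replicate number as a block. Both parts of the contrast can be read within libraries of like total. At high totals the counts were 150 with endothelin-1 and 35 with sacubitrilat, and endothelin-1 against sacubitrilat gave 2.08 ± 0.26 (edgeR adjusted p = 1.84e-07). At low totals they were 2 with both compounds and 30 with vehicle. That ratio per total was 0.0995 (95% interval 0.0115 to 0.392 for counting error), and the log2 fold change of -3.30 ± 0.80 missed the threshold (edgeR adjusted p = 0.0607). It passed without a filter (0.0101), without the libraries under 100000 counts (0.0333) and without vehicle replicate 2 (0.0160).

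Across unlike totals, where treatment and library total cannot be told apart, CDKN2A was lower with sacubitrilat both with and without endothelin-1. Sacubitrilat against vehicle gave -2.86 ± 0.42 (edgeR adjusted p = 3.33e-06), and the combined treatment against endothelin-1 gave -2.53 ± 0.79 (edgeR adjusted p = 0.0116). The second call was lost without combined-treatment replicate 3, the library with 0 counts (edgeR adjusted p = 0.0624). The difference between these effects was 0.33 ± 1.22 (edgeR adjusted p = 0.843), so its SE exceeds 1 on the log2 scale. Endothelin-1 against vehicle gave -0.78 ± 0.33, which missed the threshold (edgeR adjusted p = 0.0853). It passed with the compared groups alone (0.0481) and without sacubitrilat replicate 2 (0.0436). If the second line of the labels were the right one, the CDKN2A difference would belong to endothelin-1 in place of sacubitrilat: with the labels exchanged, 1 of the 10 genes was called in the endothelin-1 average and 0 in the sacubitrilat average. Endoderm and liver markers, which were high in both low-total groups, summed to 445 to 584 CPM with both compounds and 197 to 680 CPM with vehicle, ranges that overlapped. Their part in the CDKN2A differences was not tested.

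Genes next to CDKN2A did not share its pattern. CDKN2A lies at chr9:21967753-21995301 (minus strand, GRCh38), and CDKN2B, which encodes the INK4 inhibitor p15, at chr9:22002903-22009363. CDKN2B was at 10.9 ± 4.29 CPM with both compounds, 52.5 ± 5.22 CPM with endothelin-1, 51.7 ± 6.71 CPM with sacubitrilat and 11.4 ± 15.0 CPM with vehicle (SD, n = 3 each). Endothelin-1 and sacubitrilat libraries overlapped in CDKN2B, with 261 and 233 counts and a ratio of 1.03 (95% interval 0.861 to 1.24). It was higher with endothelin-1 than vehicle (log2 1.60 ± 0.43, edgeR adjusted p = 0.00596) and with sacubitrilat than vehicle (1.44 ± 0.44, edgeR adjusted p = 0.0175), across unlike totals. MTAP, an enzyme of methionine salvage at the same locus, had means of 19.4 CPM with both compounds, 19.9 CPM with endothelin-1, 19.8 CPM with sacubitrilat and 26.0 CPM with vehicle, and was called in none of the 9 contrasts. The antisense RNA CDKN2B-AS1, which overlaps CDKN2A on the opposite strand, had 33.6 counts over the 12 libraries and was not tested. The counts of CDKN2A sum its p16INK4a and ARF transcripts, since reads from the 3′ end fall in exons that both share. The other INK4 genes, CDKN2C and CDKN2D, had 13 and 38 counts in all, too few to be tested.

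**Figure D2:**
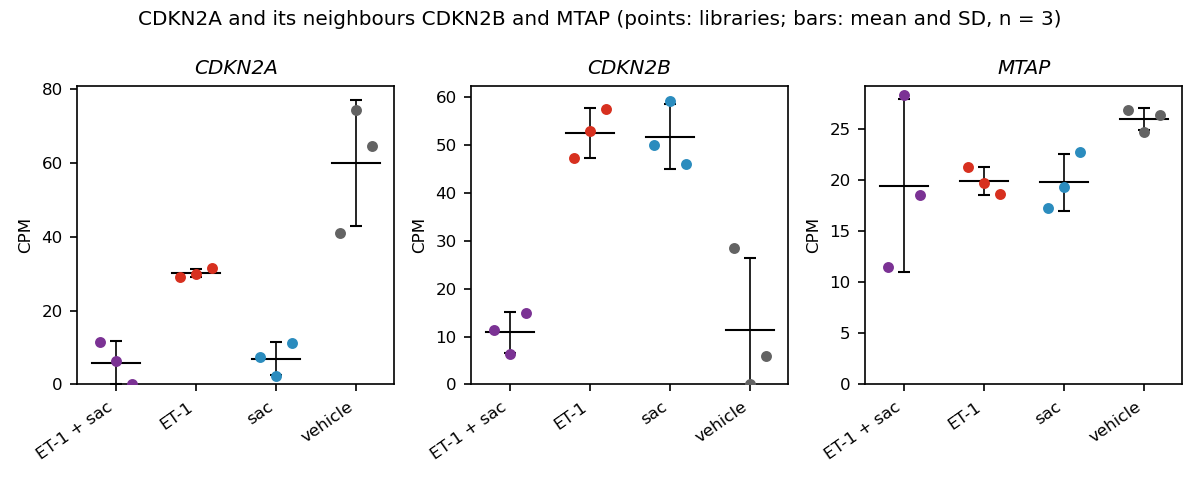
Levels in CPM of CDKN2A, CDKN2B and MTAP in the 12 libraries (points), with the mean and SD of 3 libraries per group. CDKN2A is at 7.34, 2.37 and 11.3 CPM in the sacubitrilat libraries and at 29.2 to 31.4 CPM in the endothelin-1 libraries, where CDKN2B and MTAP overlap.

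The remaining CIP/KIP inhibitors were called in none of the 9 contrasts as fitted. CDKN1B, which encodes p27, had means of 36.8 CPM with both compounds, 25.4 CPM with endothelin-1, 30.7 CPM with sacubitrilat and 16.8 CPM with vehicle. Both single compounds gave tight values, 23.8 to 26.5 CPM with endothelin-1 and 26.4 to 34.6 CPM with sacubitrilat, which overlapped narrowly, with a count ratio of 0.823 (95% interval 0.642 to 1.05). With both compounds CDKN1B ranged over 31.5 to 44.5 CPM and with vehicle over 12.4 to 25.4 CPM, without overlap, on 14 and 9 counts in all. That difference, a log2 fold change of 1.20 ± 0.59, missed the threshold (edgeR adjusted p = 0.426). CDKN1C, which encodes p57, was at 0 to 56.7 CPM with both compounds, 50.6 to 65.1 CPM with endothelin-1, 59.1 to 67.1 CPM with sacubitrilat and 37.1 to 59.9 CPM with vehicle. Its single-compound counts, 288 with endothelin-1 and 289 with sacubitrilat, gave a 95% interval of the ratio from 0.777 to 1.08 for counting error. The lone 0 was in combined-treatment replicate 1, whose floor was 34.4 CPM. For CDKN1C the combined treatment against endothelin-1 gave a log2 fold change of -0.80 ± 0.43 (edgeR adjusted p = 0.145). It was called without a filter (0.0180), without vehicle replicate 1 (0.0392) and without combined-treatment replicate 2 (0.0247), where the log2 fold change was -1.93. The combined treatment against sacubitrilat (-0.80 ± 0.43, edgeR adjusted p = 0.143) and the interaction of the compounds gained calls for CDKN1C under the same 3 settings.

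MDM2 showed smaller differences. MDM2 was at 34.4, 75.6 and 14.8 CPM with both compounds, 74.9, 83.8 and 86.9 CPM with endothelin-1, 68.7, 74.9 and 67.3 CPM with sacubitrilat, and 56.8, 24.7 and 23.4 CPM with vehicle. The endothelin-1 and sacubitrilat ranges met at 74.9 CPM, with a count ratio of 1.17 (95% interval 1.01 to 1.36) and an edgeR adjusted p of 0.115. Endothelin-1 libraries were all above vehicle libraries (log2 0.99 ± 0.32, edgeR adjusted p = 0.0221), but the call was lost without vehicle replicate 2, vehicle replicate 3 or endothelin-1 replicate 3. Without vehicle replicate 1, the highest of its group at 56.8 CPM, the log2 fold change was 2.10 (edgeR adjusted p = 0.00176). Sacubitrilat against vehicle gave MDM2 0.65 ± 0.34 (edgeR adjusted p = 0.171), and 1.75 without vehicle replicate 1 (0.0155). In the combined treatment against endothelin-1 it gave -0.91 ± 0.38, which missed the threshold (edgeR adjusted p = 0.0563). MDM2 was called lower there with RLE scaling (0.0479), DESeq2 (0.0454), limma-voom (0.0315) and no filter (0.00178), and without vehicle replicate 1 (0.00754), 2 (0.0177) or 3 (0.0239). It was also called without combined-treatment replicate 2 (0.00496), the highest of its group at 75.6 CPM, where the log2 fold change was -2.11. Against sacubitrilat the combined treatment gave MDM2 -0.57 ± 0.39 (edgeR adjusted p = 0.262), called without a filter (0.0399) and without combined-treatment replicate 2 (0.0253). The relatives of p53, TP63 and TP73, had 3 and 2 counts over all libraries, and MDM4, an MDM2 partner that restrains p53, was called in no contrast.

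ZMAT3, an RNA-binding protein induced by p53, followed the same order of groups as CDKN1A with smaller steps. It was at 57.3, 134 and 59.3 CPM with both compounds, 248, 243 and 263 CPM with endothelin-1, 164, 177 and 179 CPM with sacubitrilat, and 91.5, 86.6 and 117 CPM with vehicle. Each of these single-compound groups stood clear of all other libraries. Endothelin-1 against sacubitrilat gave a log2 fold change of 0.65 ± 0.11 (SE; edgeR adjusted p = 5.90e-05), and the combined treatment and vehicle overlapped (34.2 and 56 counts, ratio 0.906, 95% interval 0.573 to 1.41).

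GDF15 had another order. It was at 68.7, 44.1 and 66.7 CPM with both compounds, 37.0, 41.4 and 45.9 CPM with endothelin-1, 28.6, 30.0 and 15.4 CPM with sacubitrilat, and 31.6, 74.2 and 58.6 CPM with vehicle. All endothelin-1 libraries were above all sacubitrilat libraries, while vehicle overlapped endothelin-1 and the combined treatment. Endothelin-1 against sacubitrilat gave 0.93 ± 0.19 (edgeR adjusted p = 6.97e-04), a count ratio of 1.77 (95% interval 1.40 to 2.26). Across unlike totals GDF15 was higher with both compounds than with sacubitrilat (1.38 ± 0.42, edgeR adjusted p = 0.00971), a call lost without combined-treatment replicate 1 or 3. It was lower with sacubitrilat than with vehicle (-1.05 ± 0.38, edgeR adjusted p = 0.0454), but with the replicate block the adjusted p was 0.0569, and 7 of the 12 fits that each leave out 1 library lost the call. Those were the fits without any one of the 3 vehicle or 3 combined-treatment libraries or without sacubitrilat replicate 3.

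BAX, SESN1 and FDXR, which act in apoptosis, in restraint of growth signalling and in mitochondrial electron transfer, were low throughout. BAX, the pore-forming apoptosis protein, was at 57.3, 25.2 and 37.1 CPM with both compounds, on 5, 4 and 5 counts, 16.3, 13.6 and 12.2 CPM with endothelin-1, 22.8, 14.2 and 14.3 CPM with sacubitrilat, and 18.9, 24.7 and 11.7 CPM with vehicle. The combined-treatment libraries stood above the other 9, and BAX was called against endothelin-1 (1.34 ± 0.47, edgeR adjusted p = 0.0239) and against sacubitrilat (1.20 ± 0.46, edgeR adjusted p = 0.0393). Against vehicle, at like totals, the log2 fold change was 1.05 ± 0.59 (edgeR adjusted p = 0.504). Both BAX calls were lost without any single combined-treatment library or without vehicle replicate 1, and the second also without vehicle replicate 2, vehicle replicate 3 or sacubitrilat replicate 3. SESN1 had 4 counts in all with both compounds, 80 with endothelin-1, 65 with sacubitrilat and 3 with vehicle. Its single-compound ratio, endothelin-1 over sacubitrilat, was 1.13 (95% interval 0.807 to 1.60), and no contrast called it as fitted, with the interaction at an edgeR adjusted p of 0.0498 without a filter. FDXR was at 12.6 to 57.3 CPM with both compounds, 30.8 to 34.8 CPM with endothelin-1, 21.3 to 29.4 CPM with sacubitrilat and 24.7 to 47.3 CPM with vehicle. Endothelin-1 libraries lay just above sacubitrilat libraries in FDXR, with 162 and 119 counts, a ratio of 1.25 (95% interval 0.984 to 1.60) and an edgeR adjusted p of 0.122.

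**Figure D3:**
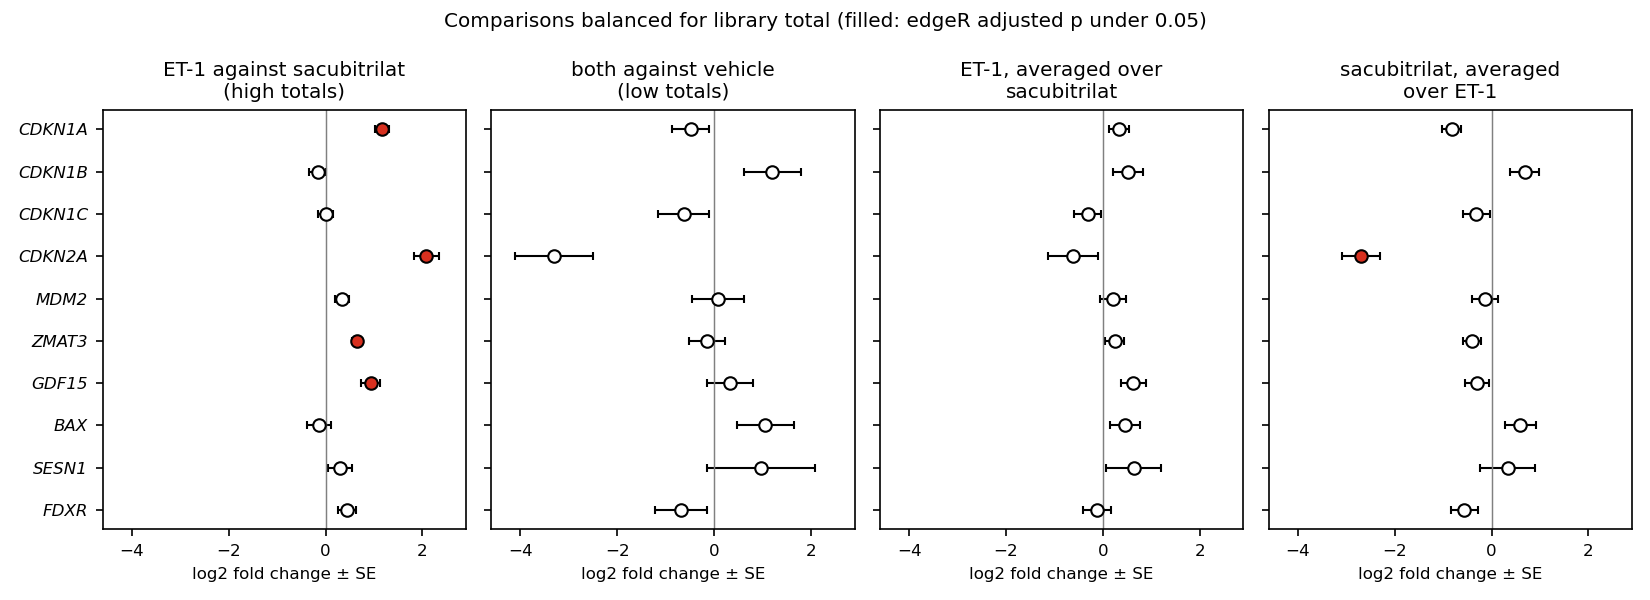
Log2 fold change ± SE of the 10 genes in the 4 contrasts balanced for library total; filled points passed an edgeR adjusted p of 0.05. Endothelin-1 against sacubitrilat fills CDKN1A, CDKN2A, ZMAT3 and GDF15, the combined treatment against vehicle and the endothelin-1 average fill none, and the sacubitrilat average fills CDKN2A at -2.69.

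Precision differed sharply between the comparisons of like total. At high totals the SE of the 10 genes ran from 0.11 to 0.26 on the log2 scale, and at low totals from 0.37 to 1.12, so an effect of the size seen for ZMAT3 between the single compounds was not detectable between the combined treatment and vehicle. Averaged over sacubitrilat, endothelin-1 called 0 of the 10 by edgeR, beside 1.83% of tested genes (1.01% higher and 0.821% lower), with 1 of the 10, GDF15, at an unadjusted p under 0.05 (log2 0.63 ± 0.26, edgeR adjusted p = 0.213). Averaged over endothelin-1, sacubitrilat called 1 lower and 4 of the 10 had an unadjusted p under 0.05, among them CDKN1B (0.68 ± 0.31, edgeR adjusted p = 0.437) and ZMAT3, at 129 CPM with sacubitrilat and 175 CPM without it (edgeR adjusted p = 0.474). Of the 11203 tested genes, 1661 had an unadjusted p under 0.05 in the endothelin-1 average and 1133 in the sacubitrilat average.

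Across unlike library totals 3 or 4 of the 10 genes were called in each comparison, beside 19.9% to 46.1% of all tested genes. Endothelin-1 against vehicle called 3 higher (CDKN1A, ZMAT3 and MDM2) and 0 lower, beside 23.2% of tested genes, 11% higher and 12.2% lower. Here CDKN1A gave 2.33 ± 0.22 (edgeR adjusted p = 5.22e-10) and ZMAT3 1.38 ± 0.22 (edgeR adjusted p = 7.75e-06). The combined treatment against endothelin-1 called 1 higher (BAX) and 3 lower (CDKN1A, CDKN2A and ZMAT3), beside 34.4% of tested genes, 16.6% higher and 17.8% lower. CDKN1A was lower by a log2 fold change of -2.82 ± 0.27 (edgeR adjusted p = 1.88e-10) and ZMAT3 by -1.53 ± 0.26 (edgeR adjusted p = 1.44e-05). These comparisons share the endothelin-1 libraries. Sacubitrilat against vehicle called 2 higher (CDKN1A at 1.18 ± 0.24 and ZMAT3 at 0.74 ± 0.23) and 2 lower (CDKN2A and GDF15), beside 19.9% of tested genes, 8.68% higher and 11.2% lower. The ZMAT3 call was lost without sacubitrilat replicate 3. The combined treatment against sacubitrilat called 2 higher (BAX and GDF15) and 2 lower (CDKN1A at -1.66 ± 0.29 and ZMAT3 at -0.89 ± 0.28), beside 35% of tested genes, 17.2% higher and 17.8% lower. Here ZMAT3 lost its call without combined-treatment replicate 3. The interaction of the compounds, which sets the low-total groups against the high-total groups, called 1 higher (GDF15) and 3 lower (CDKN1A, ZMAT3 and MDM2), beside 46.1% of tested genes, 20.1% higher and 26% lower. Only CDKN2A among these called genes was also called in a contrast balanced for total in which low-total libraries took part. Smooth muscle and fibroblast markers were higher in the high-total libraries too, as given above, and their part in these differences was not tested.

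Other p53 targets were called in 1 direction between the single compounds. Endothelin-1 against sacubitrilat called 6.44% of all tested genes higher and 4.78% lower. Of 40 other p53 targets listed, 32 were tested, and this comparison called 5 higher and 0 lower. Their median log2 fold change was 0.26, beside -0.01 for all tested genes. The 5 called higher are named here. They were KITLG, the ligand of the KIT receptor (1.11 ± 0.32, edgeR adjusted p = 0.0160), TIGAR, a regulator of glycolysis (0.53 ± 0.17, edgeR adjusted p = 0.0402), CCNG1, cyclin G1 (0.38 ± 0.11, edgeR adjusted p = 0.0243), PLK2, a stress-responsive kinase (0.36 ± 0.12, edgeR adjusted p = 0.0432), and RPS27L, a ribosomal protein paralogue (0.35 ± 0.11, edgeR adjusted p = 0.0327). CCNG1 was at 145 ± 6.97 CPM with endothelin-1 and 121 ± 6.65 CPM with sacubitrilat. In the combined treatment against vehicle and in the endothelin-1 and sacubitrilat averages, 0 of the 32 were called by edgeR, and 3, 6 and 2 had an unadjusted p under 0.05. Of all tested genes, these contrasts called 0.179%, 1.83% and 0.259% at the adjusted threshold. Those with an unadjusted p under 0.05 numbered 1297, 1661 and 1133 of the 11203. Against vehicle, across unlike totals, endothelin-1 called 8 of the 32 other targets higher and 3 lower, beside 11% of all tested genes higher and 12.2% lower. Among the 8 were EDA2R, a death-domain receptor (2.31 ± 0.65, edgeR adjusted p = 0.00824), and GADD45A, a DNA damage response gene (1.55 ± 0.47, edgeR adjusted p = 0.0133). The 3 called lower were POLH, a polymerase that copies past damaged bases (-1.64 ± 0.26, edgeR adjusted p = 7.56e-06), CES2, a carboxylesterase (-1.06 ± 0.20, edgeR adjusted p = 1.01e-04), and SFN, an adaptor that holds cells before mitosis (-2.14 ± 0.63, edgeR adjusted p = 0.0115).

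Proliferation genes ran the other way between the single compounds. Of 20 proliferation genes, endothelin-1 against sacubitrilat called 0 higher and 14 lower, beside 6.44% of all tested genes higher and 4.78% lower. The median log2 fold change of the 20 was -0.86. TOP2A, the topoisomerase of dividing cells, was at 34.9 ± 1.48 CPM with endothelin-1 and 90.3 ± 9.73 CPM with sacubitrilat (-1.23 ± 0.16, edgeR adjusted p = 2.26e-07). CDC20, an activator of the anaphase-promoting complex, was at 45.2 ± 4.42 CPM with endothelin-1 and 105 ± 10.8 CPM with sacubitrilat (SD, n = 3 each; -1.10 ± 0.14, edgeR adjusted p = 2.26e-07). In the endothelin-1 average 5 of the 20 were lower and 0 higher, with CDC20 at -1.28 ± 0.27 (edgeR adjusted p = 0.00540). That contrast called 1.01% of all tested genes higher and 0.821% lower. Of 22 tested cyclins, CDKs and pocket proteins, 2 were higher and 7 lower with endothelin-1 than with sacubitrilat. The mitotic cyclin CCNB2 was at 15.3 ± 0.398 CPM with endothelin-1 and 45.5 ± 1.89 CPM with sacubitrilat (-1.44 ± 0.18, edgeR adjusted p = 2.45e-07), and E2F1, a transcription factor that the retinoblastoma protein restrains, gave -0.98 ± 0.22 (edgeR adjusted p = 0.00168). CCND1, the G1 cyclin that partners CDK4 and CDK6, was higher, at 310.1 ± 16.7 CPM with endothelin-1 and 156 ± 14.4 CPM with sacubitrilat (1.11 ± 0.11, edgeR adjusted p = 2.08e-09), and also in the endothelin-1 average (0.62 ± 0.15, edgeR adjusted p = 0.0188). Cell-type markers differed between the single compounds as well. Of 12 cardiomyocyte markers, 7 were called higher and 0 lower with endothelin-1. Their sum averaged 20953 CPM with endothelin-1 and 14842 CPM with sacubitrilat. The 6 epicardial genes summed to 45.2 to 50.9 CPM with endothelin-1 and 152 to 189 CPM with sacubitrilat. For 6 pluripotent stem cell genes the sums were 27.8 to 41.9 CPM with endothelin-1 and 64.3 to 82.9 CPM with sacubitrilat. Of these 6, 1 had enough counts to be tested, and it was called lower with endothelin-1 (log2 fold change -0.996). POU5F1 was at 0 in the sacubitrilat libraries, while none of the 6 was at 0 with endothelin-1. The part of all these markers in the proliferation and CDK inhibitor differences was not tested.

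**Figure D4:**
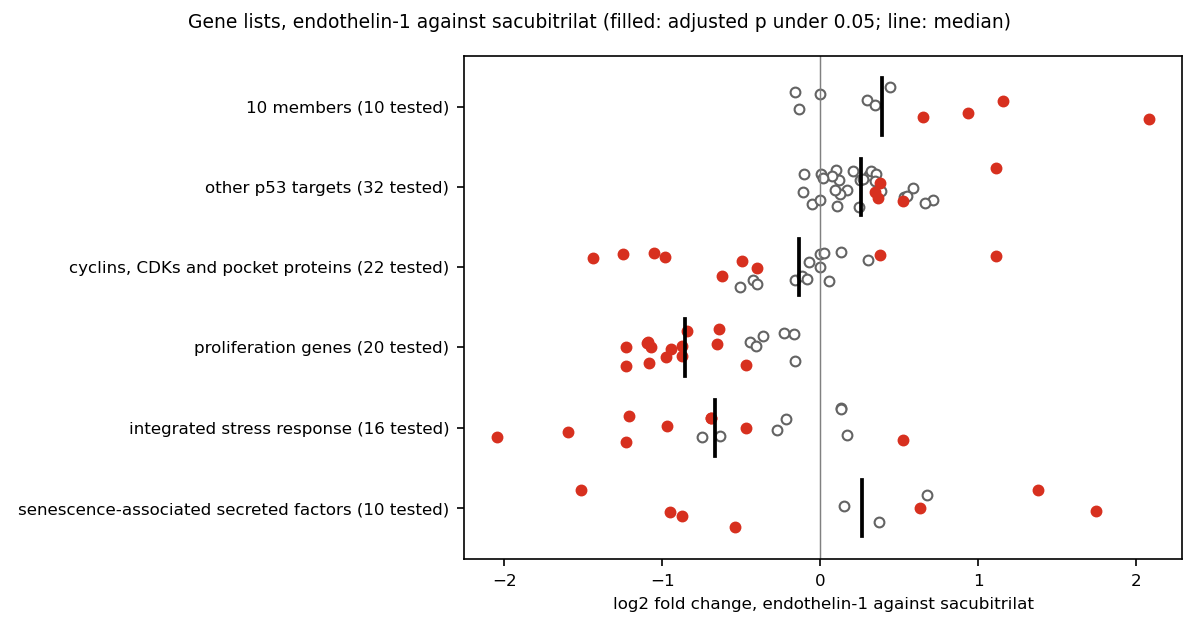
Log2 fold change of endothelin-1 against sacubitrilat for every tested gene of 6 sets (points; filled at an edgeR adjusted p under 0.05), with the median of each set as a line. The 10 genes have 4 filled points, all above 0, and the proliferation genes 14, all below 0.

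Between the single compounds, secreted factors were called in both directions. Called genes of the integrated stress response, a response that can also raise GDF15, were mostly lower with endothelin-1. Of all tested genes, this comparison called 6.44% higher and 4.78% lower. Of 10 tested senescence-associated secreted factors, 3 were higher and 4 lower with endothelin-1 than with sacubitrilat, with a median log2 fold change of 0.26. IGFBP7, an insulin-like growth factor binding protein, was at 991 ± 4.51 CPM with endothelin-1 and 320 ± 10.0 CPM with sacubitrilat (1.75 ± 0.18, edgeR adjusted p = 2.11e-09). IGFBP5, another member of that binding protein family, was at 210 ± 15.2 CPM with endothelin-1 and 652 ± 30.4 CPM with sacubitrilat (-1.52 ± 0.14, edgeR adjusted p = 2.46e-10). IGFBP7 was the one gene of the 7 lists called in the sacubitrilat average, where it was lower (-1.14 ± 0.18, edgeR adjusted p = 5.86e-04). With both compounds against vehicle, IGFBP5 (-1.17 ± 0.24, edgeR adjusted p = 0.0253) and IGFBP3 (-2.22 ± 0.47, edgeR adjusted p = 0.0285) were lower, and no other gene of the 7 lists was called. Of all tested genes, edgeR called 0.259% in the sacubitrilat average and 0.179% with both compounds against vehicle. Of 16 integrated stress response genes, 1 was higher and 8 lower with endothelin-1 than with sacubitrilat, with a median log2 fold change of -0.67. The lower genes included PSAT1 (-1.60 ± 0.17, edgeR adjusted p = 3.75e-09) and PHGDH (-1.21 ± 0.13, edgeR adjusted p = 7.34e-09), enzymes of serine synthesis. The part of this response in the GDF15 difference was not tested.

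The genes nearest to 3 of the 10 in pattern were found as the smallest root mean square difference of centred log2 CPM over the 12 libraries, among about 3203 genes with a mean of at least 50 CPM. For CDKN1A these were ACTA2, smooth muscle actin (0.25, beside a median of 1.24 over all compared genes), NPPA, the natriuretic peptide precursor (0.34), and DGKI, a diacylglycerol kinase (0.35). NPPA was at 837 CPM with both compounds, 3836 CPM with endothelin-1, 1644 CPM with sacubitrilat and 560.2 CPM with vehicle, the order of CDKN1A except for its last pair. ACTA2, one of the smooth muscle markers above, was at 181 CPM with both compounds, 1004 CPM with endothelin-1, 518 CPM with sacubitrilat and 205 CPM with vehicle. For GDF15 the nearest were NNT-AS1 (0.31), SLC2A1, a glucose transporter (0.32), and SNHG14 (0.33), beside a median of 0.84. For MDM2 they were PKN2 (0.26), FOXN3 (0.27) and STAU1 (0.32), beside a median of 0.84. The 12 libraries share their split in total, which enters each of these differences.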

How the data were processed

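RNA was measured by stranded 3′-end sequencing with molecular identifiers in 12 libraries of stem cell-derived cardiomyocytes, per the labels' protocols. The authors deposited estimated counts of reads per gene (GRCh38) and CPM made from them, after fastp 0.24.0 and featureCounts, per the submitters' processing notes. Which aligner was used and how identifiers were handled is not stated in these sources. Some deposited counts are fractional, as in MDM2, ZMAT3 and CDKN1B, and the reason was not tested. Counts were rounded, and 92 spike-in features, which held 0 counts, were left out. Totals ran from 80844 to 1953122 counts.

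The test was edgeR 4.0.16 quasi-likelihood (R 4.3.3) with TMM scaling, the default expression filter (11203 genes), all 12 libraries, group as the sole term, and Benjamini-Hochberg adjustment over all genes. SE is the log2 fold change over the square root of F. In all, 9 contrasts were fitted. Intervals of count ratios are exact conditional binomial at 95% and, like floors (3 counts), cover counting error only. The labels give the replicate number under a batch tag. Same-numbered libraries deviated together with correlations of -0.146 to 0.0396 over 18 pairs, none over 0.1, so the block is an alternative and is given where it changes a call. Tried as alternatives were DESeq2 1.42.0, limma-voom (limma 3.58.1), the block, RLE scaling, no filter or one on the mean count (50 or more), the compared groups alone, thinning to 80000 counts, leaving out libraries, and exchanged labels.

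The 10 genes and all lists were chosen with earlier results of these data known. Named genes were the 10, the INK4 genes, TP63, TP73, MDM4 and up to 4 called genes per list and direction in order of p. Some items are not reported here. PLK2, MTAP and CDKN2B-AS1 were named after their values were seen. Promoters are from RefSeq. Self-tests used simulated data.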

Additional observations from a re-analysis of the deposited data

Results flagged for a closer look

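For 4 of the 10 genes the effect of endothelin-1 differed with and without sacubitrilat, by the interaction term of the edgeR fit. The interaction was -4.00 for CDKN1A, -2.27 for ZMAT3, -1.56 for MDM2 and 1.49 for GDF15 on the log2 scale, with edgeR adjusted p-values of 1.62e-11, 1.58e-06, 0.0113 and 0.0220. In the same contrast edgeR called 46.1% of tested genes, 20.1% higher and 26% lower, with a median of -0.43 over all tested genes. The term sets the combined-treatment and vehicle libraries, which are the 6 of low total, against the 6 single-compound libraries of high total, so interaction and library total cannot be told apart. The CDKN1A and ZMAT3 calls were made in all 20 alternatives in which they were tested, the MDM2 call in 18 of 19 and the GDF15 call in 11 of 18. For GDF15, leaving out vehicle replicate 2, vehicle replicate 3 or any of the 3 combined-treatment libraries ended the call. BAX, at 1.49 with an edgeR adjusted p of 0.0704, gained a call with limma-voom (0.00855), without endothelin-1 replicate 1 (0.0424) and without sacubitrilat replicate 1 (0.0272).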

How the results depend on the processing

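Single genes were followed under other settings only in contrasts where they were called or had a log2 fold change of at least 0.5 in size. Exchanged labels were left out. Of the 983 values so chosen, 885 kept their direction and side of the threshold, 53 lost and 34 gained a call. Another 11 had no adjusted p in DESeq2, and none of the 983 changed sign. Smaller effects, which change sign more readily, were not among them. CDKN2A kept its calls in endothelin-1 against sacubitrilat and in sacubitrilat against vehicle in all 19 alternatives, and in the sacubitrilat average in 17 of 18 (DESeq2 gave no adjusted p).

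A mean of at least 50 counts tests 4 of the 10 genes and thinning to 80000 counts tests 2, so fewer can be called; some tested genes also lost their calls. The counts were 2 and 2 of 10 for the combined treatment against endothelin-1 (main 4), 1 and 1 for sacubitrilat against vehicle (main 4) and for the combined treatment against sacubitrilat (main 4), 2 and 0 for endothelin-1 against sacubitrilat (main 4), 2 and 2 for the interaction (main 4), and 0 and 0 for the sacubitrilat average (main 1). Among those tested, thinning ended the calls of CDKN1A and ZMAT3 between the single compounds (edgeR adjusted p = 0.171 and 0.815). A mean of 50 counts and thinning ended those of ZMAT3 in sacubitrilat against vehicle (0.0936 and 0.0919) and in the combined treatment against sacubitrilat (0.141 and 0.0547). A mean of 50 counts also ended those of MDM2 in endothelin-1 against vehicle (0.0872) and in the interaction (0.150). Sacubitrilat against vehicle gave 2 with the compared groups alone. The sacubitrilat average gave 2 with RLE scaling, without a filter and without the libraries under 100000 counts. The combined treatment against vehicle gave 1 without a filter and without those libraries. With exchanged labels the endothelin-1 average gave 1 and the sacubitrilat average 0. Leaving out each library gave 2 to 5 for the combined treatment against endothelin-1, 1 to 5 against sacubitrilat and 0 to 1 against vehicle, 2 to 4 for endothelin-1 and for sacubitrilat against vehicle, 4 to 4 for endothelin-1 against sacubitrilat, 0 to 0 and 1 to 2 for the endothelin-1 and sacubitrilat averages, and 3 to 5 for the interaction. The cause of these changes was not tested. With the replicate block, sacubitrilat against vehicle gave 3, through GDF15, and no other call of the 10 genes changed.

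The counts below come from unlike numbers of tested genes, so a lower count need not be a lower share. There were 11203 as fitted, 2969 at a mean of 50 counts, 1853 thinned and 40745 without a filter. Without the libraries under 100000 counts there were 13137, and leaving out a library 7228 to 14076. With the groups alone, endothelin-1 against sacubitrilat tested 11935 and the combined treatment against vehicle 2368. Over all genes, endothelin-1 against sacubitrilat called 1257, and 758 with DESeq2, 472 with limma-voom, 2106 with the groups alone, 638 at a mean of 50 counts, 10 thinned, 1898 without the libraries under 100000 counts and 681 to 1672 leaving out a library. The combined treatment against vehicle called 20, and 165, 10, 0 and 51 in the first 4 of these, 62 without a filter, 10 with the block, 126 without those libraries and 6 to 221 leaving out a library. The endothelin-1 average called 205, and 334 with DESeq2, 121 with the block, 34 thinned, 366 without those libraries, 29 with exchanged labels and 110 to 540 leaving out a library. The sacubitrilat average called 29, and 100 with DESeq2, 7 with limma-voom, 16 at a mean of 50 counts and with the block, 68 without a filter, 1 thinned, 185 without those libraries, 205 with exchanged labels and 9 to 231 leaving out a library. In the 5 contrasts across totals a mean of 50 counts gave 792 to 1587 and thinning 409 to 950, where edgeR called 2228 to 5163, and sacubitrilat against vehicle gave as few as 1450 leaving out a library.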
